A study of Mus musculus with 8 samples.

Results

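The genes described here are Mt1, Mt2 and Mt3, the metallothioneins measured in the 4 single-cell gene tables of the series. Their rows were taken by symbol, 3 of 55367 symbols, and each symbol stood for 1 gene identifier (ENSMUSG00000031765.8, ENSMUSG00000031762.7 and ENSMUSG00000031760.9). Mt4, the fourth gene of the cluster, had 0 UMIs in the hippocampal and T cells analysed. A UMI, or unique molecular identifier, marks 1 captured mRNA molecule. The study examined CD4+ T cells of the mouse meninges and the cells of the hippocampus after regulatory T cells, which carry the transcription factor Foxp3, had been depleted. Meningeal T cells were sorted as CD45+ CD3+ CD4+ without a listed treatment, and came as replicate 1 with the genotype Foxp3-GFP and replicate 2 with the genotype B6.WT. Hippocampal cells sorted as CD45- Thy1- came as 2 libraries, DTRneg from Foxp3-DTR- mice and DTRpos from Foxp3-DTR+ littermates. Both hippocampal groups received diphtheria toxin, which kills Foxp3-expressing cells only in mice that carry the receptor gene, and each library pooled 2 mice. Ages are not given in the sources used here. Each genotype is therefore 1 library, and genotype, library and depth cannot be told apart in the hippocampus. The 2 meningeal replicates differ in genotype as well as in library. All mice were perfused with PBS before the tissue was taken.

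Metallothioneins are small, cysteine-rich proteins that hold zinc and copper ions and take up reactive oxygen. Mt1 and Mt2 are made in many tissues and are switched on by zinc through the metal-responsive transcription factor Mtf1, and also by glucocorticoids and oxidative stress. Mt3 was first described as a growth inhibitory factor of the brain and is known from astrocytes and from zinc-rich neurons. Mtf1 recognises short promoter motifs named metal response elements.

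In GENCODE M21 on GRCm38 the genes lie on the plus strand of chromosome 8, Mt3 at chr8:94152607-94154146, Mt2 at chr8:94172664-94173568 and Mt1 at chr8:94179082-94180327. Mt2 and Mt1 are separated by 5513 bases, and Mt3 ends 18517 bases before Mt2. The 250 bases before each gene's RefSeq start on GRCm38.p6 are printed 5′ to 3′ because these neighbouring genes differed in their cell-class pattern. Capitals mark the core of the metal response element, TGCACNC or TGCGCNC, on either strand.
Mt1 (chr8:94178839-94179088, plus strand): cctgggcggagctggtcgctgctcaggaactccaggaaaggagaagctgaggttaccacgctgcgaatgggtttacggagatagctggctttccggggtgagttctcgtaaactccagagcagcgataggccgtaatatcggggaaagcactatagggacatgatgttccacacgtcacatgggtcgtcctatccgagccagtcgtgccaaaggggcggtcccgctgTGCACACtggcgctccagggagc
Mt2 (chr8:94172368-94172617, plus strand): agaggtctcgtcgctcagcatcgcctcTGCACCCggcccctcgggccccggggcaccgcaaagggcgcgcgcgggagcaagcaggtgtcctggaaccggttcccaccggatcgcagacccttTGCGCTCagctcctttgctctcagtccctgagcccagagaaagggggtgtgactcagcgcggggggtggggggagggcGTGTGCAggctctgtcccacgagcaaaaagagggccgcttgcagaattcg
Mt3 (chr8:94152357-94152606, plus strand): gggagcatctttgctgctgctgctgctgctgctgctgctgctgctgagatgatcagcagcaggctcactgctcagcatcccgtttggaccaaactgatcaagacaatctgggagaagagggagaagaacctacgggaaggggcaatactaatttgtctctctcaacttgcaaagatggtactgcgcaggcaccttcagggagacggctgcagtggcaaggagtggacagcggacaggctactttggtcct

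Motifs were counted in the RefSeq table's windows of 300 bases, which add 50 bases after the start, and overlapping matches were allowed. The Mt2 window held 4 metal response element cores, the Mt1 window 3 and the Mt3 window 1. At least 1 core stood in 25.7% of 32851 promoter windows, at least 3 in 1.97% and at least 4 in 0.517%. The first core printed for Mt1 starts 23 bases before its RefSeq start. Its other 2 cores, the single Mt3 core and 1 of the 4 Mt2 cores lie after the RefSeq start of their gene. The GENCODE start of Mt2 is downstream of its RefSeq start, and that Mt2 core lies before the GENCODE start. The antioxidant response element core TGACNNNGC had 1 match, in Mt2, and stood in 12.4% of the windows. A match describes these letters and not a bound site. Reads of Mt1 and Mt2 share few stretches: the longest run common to their first GENCODE transcripts was 20 bases, and 12 bases within the last 200.

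The hippocampal tables held 53484704 and 35814655 UMIs (DTRneg and DTRpos) and gave 6863 and 5691 cells with medians of 6003 and 4509 UMIs. The meningeal tables gave 1964 and 4430 cells with medians of 3119.5 and 1738 UMIs. The 2 hippocampal libraries shared 15 cell barcodes and the 2 meningeal ones 7, and meningeal and hippocampal libraries shared 0. A hippocampal cell was placed in a class when it had at least 2 UMIs of the class marker and at least 3 times as many as of any other of the 6 markers. The markers were Aqp4 (astrocytes), Pdgfra (oligodendrocyte precursors), Mog (oligodendrocytes), Cldn5 (endothelial cells), Rgs5 (pericytes) and Dcn (fibroblasts). DTRneg gave 636 Aqp4+, 664 Pdgfra+, 3711 Mog+, 479 Cldn5+, 189 Rgs5+ and 50 Dcn+ cells. DTRpos gave 663, 803, 2579, 354, 153 and 37. Each of 31 further markers that no gate used was highest in its own class in both libraries. The hippocampal label names neurons and glia, but the summed level of the neuronal genes Snap25, Syt1 and Rbfox3 was 15.4 and 19.1 CPM over all cells, where CPM is a gene's count per 1000000 UMIs of the group. The design text describes this sort as leaving out neurons and microglia.

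Mt1 was the most abundant of the 3 genes in Aqp4+ cells and was found in every class. Its level in CPM, with an exact 95% Poisson interval, was 8580.3 (8473 to 8688) in Aqp4+ cells of DTRneg and 9507 (9386 to 9629) in those of DTRpos. These intervals, like all others below, cover counting error only. Mt1 stood at 1515 and 1149.9 CPM in Dcn+ cells (DTRneg, then DTRpos), 1003 and 377 in Rgs5+ cells, 809 and 632 in Cldn5+ cells, 727 and 838 in Mog+ cells and 284 and 355 in Pdgfra+ cells. In the main setting Aqp4+ cells were the highest class and Pdgfra+ cells the lowest in both libraries, with Dcn+ cells next below Aqp4+ cells in both. The places of Dcn+ and Pdgfra+ cells in DTRpos did not hold without cells with at least 3 UMIs of 6 astrocyte genes, as given below. That setting left only 17 of 37 Dcn+ cells and 220 of 803 Pdgfra+ cells there. Rgs5+ cells stood above Cldn5+ and Mog+ cells in DTRneg and below them in DTRpos. In edgeR's quasi-likelihood fit over 12 sums (6 classes in 2 libraries), Mt1 was higher in Aqp4+ cells than in the mean of the other 5 by a log2 fold change of 4.02 (SE 0.23, adjusted p = 3.47e-05). Of 13538 genes tested in that contrast 49.7% were called, 31.8% as higher, so a call by itself is common. Mt1 was lower in Pdgfra+ cells than in the mean of the others (log2 fold change -2.56, SE 0.34, edgeR adjusted p = 0.00157), in a contrast that called 19.4% of genes as lower. Among the 4 classes between them, 0 of 6 pairs passed the test for Mt1, with edgeR adjusted p from 0.312 to 0.817. These calls depend on the form of the test: with edgeR's older quasi-likelihood, which gave smaller errors, 5 of the 6 passed (adjusted p from 2.43e-08 to 0.293), where 56% (Mog and Cldn5), 45.8% (Mog and Rgs5), 36% (Mog and Dcn), 26.9% (Cldn5 and Rgs5), 23% (Cldn5 and Dcn) and 10.6% (Rgs5 and Dcn) of all genes were called.

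Mt2, encoded beside Mt1 and usually induced with it, had the same highest class and another order below it. Its level in Aqp4+ cells was 1258 (1218 to 1300.3) CPM in DTRneg and 1459.5 (1412 to 1508) in DTRpos. It stood at 207 and 190.1 CPM in Dcn+ cells and 172 and 143 in Cldn5+ cells, and these 2 classes did not differ by the test (edgeR adjusted p = 0.736). It stood at 50.8 and 63.7 CPM in Pdgfra+ cells, 32.8 and 34.4 in Mog+ cells, and 26.9 and 58.4 in Rgs5+ cells, where it rested on 11 and 15 UMIs. Pdgfra+, Mog+ and Rgs5+ cells did not differ from each other beyond the spread (edgeR adjusted p from 0.480 to 0.712 in the 3 pairs), and each was lower than Cldn5+ cells. Cldn5+ cells exceeded Rgs5+ cells by a log2 fold change of 2.20 (SE 0.25, edgeR adjusted p = 3.97e-08), and the differences of Pdgfra+ and Mog+ cells from Cldn5+ cells were -1.93 (SE 0.15, edgeR adjusted p = 4.40e-12) and -1.99 (SE 0.14, edgeR adjusted p = 3.93e-13). Mt2 was higher in Aqp4+ cells than in the mean of the others by a log2 fold change of 4.50 (SE 0.08, edgeR adjusted p = 2.76e-26).

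Mt3, the brain member, had the widest range between classes of the 3 genes. Its level in Aqp4+ cells was 7881 (7779 to 7985) CPM in DTRneg and 8280 (8167 to 8394) in DTRpos. Pdgfra+ cells came next with 772 (743 to 801) and 848 (819 to 878) CPM. The other 4 classes lay between 62.2 and 257 CPM. Mt3 was higher in Aqp4+ cells than in the mean of the other 5 by a log2 fold change of 6.06 (SE 0.22, edgeR adjusted p = 3.08e-06). Pdgfra+ cells, where Mt1 was lowest, had more Mt3 than Mog+ cells by a log2 fold change of 2.88 (SE 0.32, edgeR adjusted p = 0.000404). They did not pass the test against the Dcn+ cells (log2 fold change 1.91, SE 0.54, edgeR adjusted p = 0.0537), and 0 of the 6 pairs among Mog+, Cldn5+, Rgs5+ and Dcn+ cells passed it (edgeR adjusted p from 0.316 to 0.767). Under the older quasi-likelihood 4 of those 6 pairs passed for Mt3, and so did Pdgfra+ against Dcn+ cells (log2 fold change 1.90, edgeR adjusted p = 4.09e-19), where 27.3% of genes were called.

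Aqp4+ cells exceeded each of the other 5 classes in each of the 3 genes, with log2 fold changes from 3.17 to 5.49 for Mt1, 3.16 to 5.50 for Mt2 and 3.99 to 7.27 for Mt3, and the largest edgeR adjusted p was 0.00341 (Mt1 against Dcn+ cells). Those pairs called 57% (Pdgfra), 67% (Mog), 55.3% (Cldn5), 40.8% (Rgs5) and 26.5% (Dcn) of all genes. The other pairs called 70.2% (Pdgfra and Mog), 56.2% (Pdgfra and Cldn5), 42% (Pdgfra and Rgs5), 27.6% (Pdgfra and Dcn), 55.5% (Mog and Cldn5), 45.8% (Mog and Rgs5), 36.2% (Mog and Dcn), 26.6% (Cldn5 and Rgs5), 22.9% (Cldn5 and Dcn) and 10.4% (Rgs5 and Dcn). Set against the mean of the other 5 classes, Mog+ cells were lower in Mt2 (log2 fold change -1.85, SE 0.12, edgeR adjusted p = 1.47e-13) and Mt3 (-2.17, SE 0.32, edgeR adjusted p = 0.00206) and did not pass the test in Mt1 (-0.17, SE 0.28, edgeR adjusted p = 0.738), where 56.2% of genes were called. Cldn5+ cells were higher in Mt2 (0.53, SE 0.13, edgeR adjusted p = 0.00118) and lower in Mt3 (-1.51, SE 0.38, edgeR adjusted p = 0.0272), where 39.2% were called. Rgs5+ cells were lower in Mt2 and Mt3 (largest edgeR adjusted p = 0.0168, 23.7% called). In Dcn+ cells Mt2 alone passed the test (0.70, SE 0.21, edgeR adjusted p = 0.0186, 15.9% called), and that call was lost without the filter on low counts (adjusted p = 0.116), with 4 marker genes per class (0.139), after thinning (0.320) and with at least 1000 genes per cell (0.0626). For Cldn5+ cells, the Mt3 call was lost without the filter (edgeR adjusted p = 0.0516) and with at least 1000 genes (0.0709), and the Mt2 call after thinning (0.0587). The 3 neighbouring genes were called together in the same direction in Aqp4+ cells, while Pdgfra+ cells were lower in Mt1 and Mt2 and higher in Mt3 (1.28, SE 0.26, edgeR adjusted p = 0.0094, 52.5% called).

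**Figure D1:**
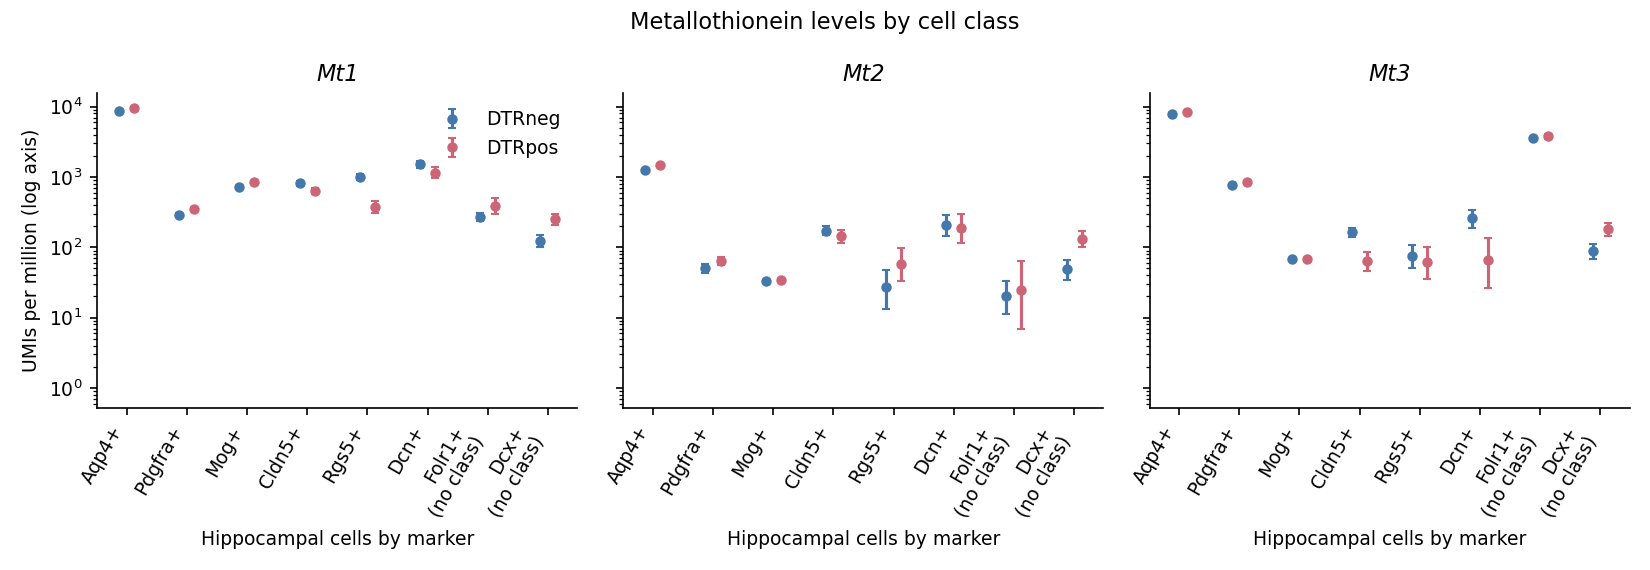
Level of Mt1, Mt2 and Mt3 (CPM, log axis) in the 6 marker classes and in 2 further groups of cells outside them, with blue points for DTRneg and red points for DTRpos and exact 95% Poisson intervals as bars. All 3 genes are highest in Aqp4+ cells in both libraries, and Mt3 alone is also high in Folr1+ cells (3554 and 3795 CPM).

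The ratio of Mt1 to Mt2 UMIs was highest in Mog+ cells among Mog+, Aqp4+, Pdgfra+ and Cldn5+ cells. Each UMI counts 1 captured molecule, so no scaling by transcript length was applied. Free RNA enters these ratios too, and whether the 2 genes were captured alike in each class was not tested. Mog+ cells had 22.1 Mt1 UMIs per Mt2 UMI in DTRneg (exact 95% interval 20.9 to 23.5) and 24.3 in DTRpos (22.7 to 26.2). Aqp4+ cells had 6.82 (6.58 to 7.06) and 6.51 (6.29 to 6.75). Pdgfra+ cells had 5.60 (4.78 to 6.59) and 5.57 (4.85 to 6.43), and Cldn5+ cells had 4.71 (3.995 to 5.58) and 4.43 (3.54 to 5.60). The intervals of Mog+ cells lay above those of these 3 classes in both libraries. Rgs5+ cells had 37.3 (20.6 to 75.3) in DTRneg and 6.47 (3.73 to 11.997) in DTRpos, so their balance was not alike in the 2 libraries. Dcn+ cells had 7.32 (5.18 to 10.6) and 6.05 (3.75 to 10.3). Outside the classes, Dcx+ cells had 2.575 (1.77 to 3.81) and 1.89 (1.39 to 2.59). Folr1+ cells had 13.3 (7.89 to 24.3) and 15.5 (5.76 to 58.7), from 15 and 4 Mt2 UMIs, with intervals that overlap those of Mog+ cells. Mt1 and Mt3 were near equal in Aqp4+ cells, with 1.09 and 1.15 Mt1 UMIs per Mt3 UMI. Mt3 exceeded Mt1 in Pdgfra+ cells, with ratios of 0.368 and 0.418.

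**Figure D2:**
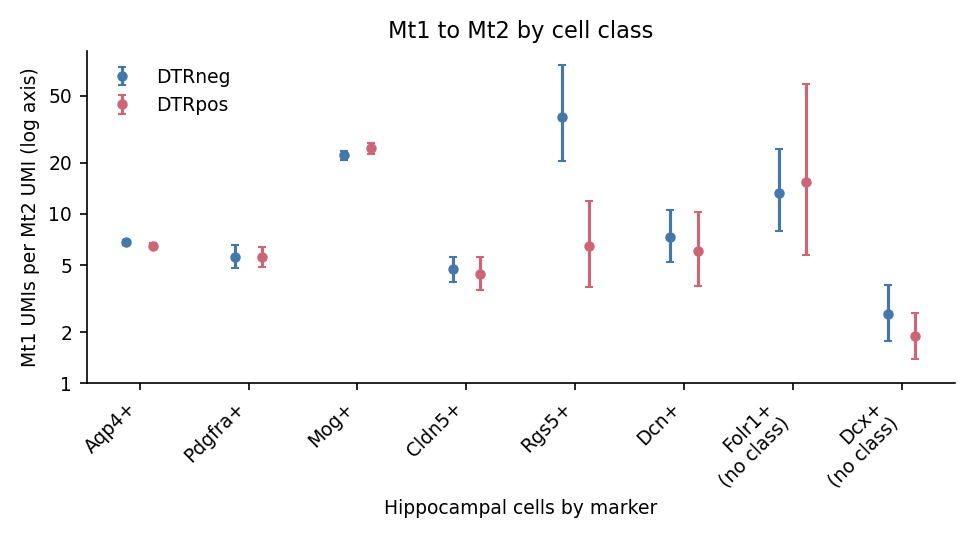
Mt1 UMIs per Mt2 UMI (log axis) by class, with blue points for DTRneg, red points for DTRpos and exact 95% intervals as bars. The Mog+ points at 22.1 and 24.3 lie above the Aqp4+, Pdgfra+ and Cldn5+ points in both libraries.

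Within Aqp4+ cells the genes were present in nearly every cell. Mt1 had a UMI in 99.8% and 99.7% of them, Mt3 in 99.8% of both, and Mt2 in 96.1% and 94.9%. Their median counts per cell were 33 and 31 UMIs of Mt1, 32 and 28 of Mt3, and 5 in both libraries of Mt2. Over Aqp4+ cells thinned to 2000 UMIs each, the Spearman coefficient between Mt1 and Mt3 was 0.507 in DTRneg (571 cells) and 0.439 in DTRpos (603 cells). It was 0.443 and 0.428 between Mt1 and Mt2, and 0.246 and 0.200 between Mt2 and Mt3. These describe cells of 1 library, which share their source, and carry no test. In Cldn5+ cells thinned in the same way the coefficient between Mt1 and Mt2 was 0.483 (241 cells) and 0.430 (125 cells). Among Mog+ cells it was 0.118 and 0.138, with Mt2 in only 5.10% and 7.27% of the thinned cells.

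Mog+ cells, the largest class, carried Mt1 widely and unevenly. A Mt1 UMI was seen in 92.7% (exact binomial 95% interval 91.8 to 93.5) of DTRneg and 92.4% (91.3 to 93.4) of DTRpos cells at median depths of 7660 and 6398 UMIs. After thinning to 2000 UMIs, which left out 42 and 76 cells, the shares were 65.6% and 70.8%. Mt2 was seen in 18.9% and 19.9% and Mt3 in 34.5% and 36.6% of the unthinned cells. At least 10 Mt1 UMIs were held by 865 of the DTRneg cells (23.3%) and 649 of the DTRpos cells (25.2%), and the highest cells held 148 and 173. The tenth of cells with most Mt1 held 37.6% and 36.4% of the Mt1 UMIs of the class. In Aqp4+ cells that share was 24.7% and 22.6%. These shares are from unthinned counts, with medians of 5 Mt1 UMIs per Mog+ cell in both libraries against 33 and 31 per Aqp4+ cell. The part of counting noise and depth in their difference was not tested. Of the 865 and 649 cells, 293 and 207 had at least 3 UMIs of the 6 astrocyte genes named below, against 16.1% and 15.8% of the class.

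Part of a low level outside astrocytes can be free RNA in the droplet. The genes Slc1a2, Slc1a3, Aldoc, Gja1, Slc4a4 and Fgfr3, made mostly by astrocytes, were used as a guide to the level such RNA could reach. In Mog+ cells these 6 genes stood at 0.203% to 1.88% of their Aqp4+ level in DTRneg and 0.130% to 1.502% in DTRpos. Mt1 stood there at 8.47% and 8.82%, above all 6 genes, and Mt2 at 2.61% and 2.36%, also above all 6. Mt3 in Mog+ cells stood at 0.862% and 0.813%, within their range. In Cldn5+ cells the 6 genes reached at most 2.62% and 3.01%, while Mt1 stood at 9.43% and 6.64% and Mt2 at 13.7% and 9.77%. Mt3 there stood at 2.07% and 0.779%, again within their range. In Pdgfra+ cells, which make Slc1a2 and Slc1a3 themselves, the 6 genes reached 6.997% and 6.55%, and Mt3 stood above them at 9.79% and 10.2%. Mt1 (3.31% and 3.73%) and Mt2 (4.03% and 4.36%) stood within the range there. In Rgs5+ cells Mt1 stood at 11.7% and 3.97%, above the highest of the 6 genes at 6.54% and 2.66%. In Dcn+ cells Slc1a3 stood at 33.8% and 22.6%, above all 3 metallothioneins. The next of the 6 genes there, Gja1, stood at 14.1% and 11.1%, below Mt1 (17.7% and 12.1%) and Mt2 (16.4% and 13.0%), while Mt3 stood at 3.26% and 0.803%. Levels within the range of the 6 genes were not told apart from background by this comparison, and in Dcn+ cells that range was set by Slc1a3 alone for Mt1 and Mt2.

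**Figure D3:**
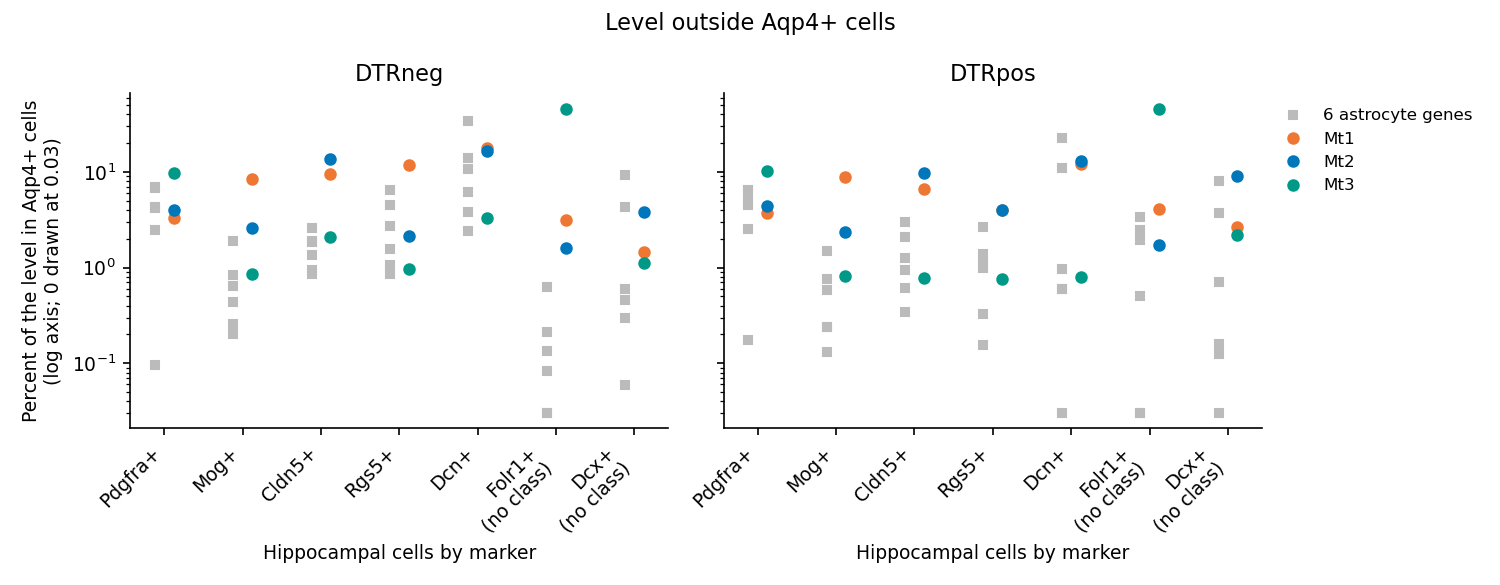
Level of Mt1, Mt2 and Mt3 (coloured points) and of 6 astrocyte genes (grey squares) outside Aqp4+ cells, as a percent of the level in Aqp4+ cells of the same library (log axis, values of 0 drawn at 0.03). In Mog+ and Cldn5+ cells Mt1 and Mt2 lie above all grey squares and Mt3 lies among them, in both libraries.

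Cells with at least 10 Mt1 UMIs held most Mt1 UMIs of Rgs5+ cells in DTRneg and of Dcn+ cells in both libraries. They held a smaller share in Rgs5+ cells of DTRpos and in Cldn5+ cells. The 10 Rgs5+ cells of DTRneg with at least 10 Mt1 UMIs, of 189, held 327 of the 410 Mt1 UMIs and only 4 of the 11 Mt2 UMIs. The highest held 78 Mt1 UMIs, and 8 of the 10 had no Mt3 UMI. At least 1 UMI of the smooth muscle genes Acta2, Myh11 and Tagln was found in 5 of the 10, and these cells held 92 of the 302 such UMIs of the class. In DTRpos 2 of 153 Rgs5+ cells had at least 10 Mt1 UMIs and held 46 of 97. In Cldn5+ cells 17 of 479 (DTRneg) and 5 of 354 (DTRpos) reached 10 Mt1 UMIs and held 274 of 824 and 62 of 421. Mt3 in Cldn5+ cells of DTRneg sat in few cells with astrocyte RNA: the 7 cells with at least 3 UMIs of the 6 astrocyte genes held 110 of its 166 UMIs. Without such cells Mt3 stood at 56.4 and 25.7 CPM there, while Mt1 stood at 713 and 636. In the same setting Mog+ cells kept 700.2 and 855 CPM of Mt1, and Rgs5+ cells 978 and 367. Dcn+ cells, of which 18 and 17 were left, had 2121 and 345 CPM, and Pdgfra+ cells 300.2 and 373. Dcn+ cells of DTRpos were then the lowest class for Mt1, in the 17 cells left of 37. Before that step Slc1a3 and Gja1 stood there at 22.6% and 11.1% of the Aqp4+ level, and each other astrocyte gene at 0.962% or less. Whether the cells left out held RNA of astrocytes or made these genes themselves was not tested. The limits of 10 and 3 UMIs were chosen after these values were seen.

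Cells outside the 6 classes were described by 2 further markers, with at least 2 UMIs each. Cells with under 2 UMIs of every class marker numbered 1072 (DTRneg) and 1043 (DTRpos), most with neither further marker. They held 14217 of the 43066 and 14427 of the 40472 Mt3 UMIs of all cells, Folr1+ cells 2634 and 605 of these. Mt3 stood at 3276.5 and 4388 CPM in the 1072 and 1043 cells and Mt1 at 2729 and 4553 CPM. Their 6 astrocyte genes summed to 4510 and 7037 CPM, against 18431 and 20912 CPM in Aqp4+ cells. Those with neither marker were not described apart. Folr1 marks choroid plexus epithelium, which makes cerebrospinal fluid, and Dcx marks neuroblasts, the young neurons of the dentate gyrus. Folr1+ cells (155 in DTRneg, 36 in DTRpos) carried Mt3 at 3554 (3420 to 3692) and 3795 (3499 to 4110) CPM, and each of these cells had a Mt3 UMI. That is 45.1% and 45.8% of the Aqp4+ level, while the 6 astrocyte genes reached at most 0.634% and 3.36% in them. Mt1 stood at only 269.9 and 389 CPM in Folr1+ cells, so that there were 0.0759 and 0.102 Mt1 UMIs per Mt3 UMI. The choroid plexus genes Ttr, Folr1, Kl, Clic6 and Kcnj13 summed to 350136 and 315129 CPM in these cells. Dcx+ cells (110 and 83) had 125 and 250.2 CPM of Mt1, 48.4 and 132 of Mt2 and 88.4 and 180.1 of Mt3. Their 6 astrocyte genes reached up to 9.39% and 8.10% of the Aqp4+ level, set by Slc1a3, with Slc1a2 at 4.30% and 3.76% and the other 4 genes at most 0.601% and 0.709%. Mt1 stood at 1.45% and 2.63% and Mt3 at 1.12% and 2.18%, below Slc1a2 and Slc1a3 and above the other 4. Mt2 stood at 3.85% in DTRneg, also between them, and at 9.05% in DTRpos, above all 6.

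Genes that handle metal ions did not share 1 class pattern with the metallothioneins. Of 30 metal handling genes 28 were tested, and 10 were higher and 5 lower in Aqp4+ cells than in the mean of the other classes, with a median log2 fold change of 0.11 against 0.18 over all genes. Over all genes 31.8% were higher and 17.9% lower in this contrast, so these counts are near the background. Slc39a12, a zinc importer, was higher (edgeR adjusted p = 2.15e-26) and stood at 345 and 306 CPM in Aqp4+ cells, against at most 5.59 CPM in any other class. Slc30a10, an exporter known for manganese, was also higher in that contrast (edgeR adjusted p = 1.01e-20), with 0 UMIs in Cldn5+ cells, although Rgs5+ cells had 340.1 and 432 CPM against 129 and 156 in Aqp4+ cells. Slc30a1, the zinc exporter of the plasma membrane and itself a target of Mtf1, was higher by 0.77 (SE 0.19, edgeR adjusted p = 0.00113), but its highest class was Cldn5+ cells with 220.05 and 242 CPM. Mtf1, the zinc-sensing activator of Mt1 and Mt2, was lower (log2 fold change -0.83, SE 0.25, edgeR adjusted p = 0.00683). Mtf1 stood at 9.44 and 10.1 CPM in Aqp4+ cells and at 71.2 and 79.4 in Mog+ cells. Cp, the copper-binding ferroxidase ceruloplasmin, was lowest in Aqp4+ cells with 0 and 1 UMIs, and Ftl1, a ferritin chain, was lower there by a log2 fold change of -1.36 (SE 0.09, edgeR adjusted p = 1.50e-13).

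Of 16 oxidative stress genes 9 were higher and 5 lower in Aqp4+ cells, with a median log2 fold change of 0.42 against 0.18 over all genes, of which 31.8% were higher and 17.9% lower. Prdx6, a peroxiredoxin, was higher by 3.902 (SE 0.07, edgeR adjusted p = 8.61e-27) and Nqo1, a quinone reductase, by 2.23 (SE 0.35, edgeR adjusted p = 3.92e-06). Gpx1, a glutathione peroxidase, was lower (log2 fold change -1.81, SE 0.12, edgeR adjusted p = 1.33e-13), and so was Hmox1, a heme oxygenase (-1.03, SE 0.37, edgeR adjusted p = 0.0218). Of 9 glucocorticoid response genes tested 2 were higher, Ddit4 (log2 fold change 0.97) and Tsc22d3 (0.85), and 3 were lower, led by Sgk1 (-4.26), with a median over the list of -0.18. All 12 genes of tissue dissociation stress were lower in Aqp4+ cells, led by Atf3 (log2 fold change -5.74) and Hspa1a (-5.64), with a median of -3.58, in a contrast where 17.9% of all genes were lower. Their summed level was 1565 and 1765 CPM in Aqp4+ cells and 21850 and 20049 CPM in Cldn5+ cells, and its part in the metallothionein levels was not tested.

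The genes whose pattern over the 12 sums was most like that of each metallothionein were found by Pearson's r of log2(CPM + 1) among 7115 other genes with a mean of at least 20 CPM. The sums share 2 libraries and r is a description with no test. Mt3 was most like Aldoc, a glycolytic enzyme of astrocytes (r = 0.987), Gabrg1 (0.978), Ndufc2 (0.970), Sash1 (0.967) and Pgm1 (0.967). Mt1 was most like Arhgap5 (0.971), Pygb, a brain glycogen phosphorylase (0.943), Aldh1l1, an astrocyte enzyme of folate metabolism (0.932) and Lix1 (0.927). Mt2 was most like Slc20a1, a phosphate transporter (0.970), Atl2 (0.964), Aldh1l1 (0.957), Cd38 (0.952) and Dhrs3 (0.932). None of the 3 genes was among the 5 most like another: r was 0.845 between Mt1 and Mt2, 0.750 between Mt2 and Mt3 and 0.665 between Mt1 and Mt3.

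Between the hippocampal libraries the 3 genes moved little in the glial classes. With 1 library per genotype there is no test, and ratios are given with exact 95% intervals for counting error. In Aqp4+ cells the log2 ratio of DTRpos over DTRneg was 0.15 (0.12 to 0.17) for Mt1, 0.21 (0.15 to 0.28) for Mt2 and 0.07 (0.04 to 0.10) for Mt3. The median over the 1429 genes with a mean of at least 100 CPM in these cells was 0.05, and 0.07% of them were past 2-fold. In Pdgfra+ cells the log2 ratios were 0.32 (0.20 to 0.44), 0.33 (0.04 to 0.61) and 0.14 (0.06 to 0.21), where 0.286% of genes were past 2-fold. In Mog+ cells Mt1 had a log2 ratio of 0.21 (0.18 to 0.23), Mt2 0.07 (-0.06 to 0.20) and Mt3 -0.01 (-0.11 to 0.08), which was above 0 in all 9 alternatives, where 0.242% were past 2-fold. In the 3 glial classes none of the 9 ratios was past 2-fold, and 8 of 9 were above 0. The median over all genes of at least 100 CPM was also above 0 in each (0.05 in Aqp4+, 0.05 in Pdgfra+ and 0.06 in Mog+ cells). The 9 ratios are of 3 genes in the same 2 libraries.

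In the vascular and Dcn+ classes Mt1 had ratios below 0, in Dcx+ cells outside the classes all 3 genes had ratios above 0, and several of these values moved with the settings. In Rgs5+ cells Mt1 stood at 1003 and 377 CPM, a log2 ratio of -1.41 (-1.74 to -1.09), where 1.24% of 1770 genes were past 2-fold and 1.07% lower. Its size depended on the gate: the levels were 1168 and 834 CPM (log2 ratio -0.49) with a gate of 1 UMI and 2 times the next marker, 655 and 408 CPM (-0.68) with no UMI of another class marker allowed, and 724 and 386 CPM (-0.91) with equal weight per cell, all within 2-fold. Without the 5 cells highest in Mt1 they were 421 and 138 CPM (-1.61). The smooth muscle genes moved with it, at 739 CPM in DTRneg and 148 in DTRpos in this class, and so did the choroid plexus genes, at 3616 and 19.5 CPM. Their part in the result was not tested. Mt2 in Rgs5+ cells had a log2 ratio of 1.12 (-0.10 to 2.38). In Cldn5+ cells Mt3 stood at 163 and 64.5 CPM, a log2 ratio of -1.34 (-1.86 to -0.85), where 0.603% of 1659 genes were past 2-fold and 0.301% lower. That value rested on 5 cells: without the 5 highest of each library the levels were 21.3 and 27.9 CPM and the log2 ratio 0.39. Mt1 in Cldn5+ cells had a log2 ratio of -0.36 (-0.53 to -0.19), and Mt2 -0.27 (-0.65 to 0.10). Dcn+ cells, at 50 and 37, gave log2 ratios of -0.40 (-0.72 to -0.08) for Mt1 and -1.95 (-3.34 to -0.79) for Mt3, the latter from 46 and 7 UMIs, where 6.67% of 1633 genes were past 2-fold and 3.37% lower. Neither direction held throughout: Mt3 in Dcn+ cells was 0.68 with 4 marker genes per class and 0.37 with doublets kept, and Mt1 was 0.20 after thinning and -2.92 with no UMI of another class marker. Choroid plexus genes differed in these classes as well, at 1738 against 36.0 CPM in Cldn5+ cells and 7047 against 76.0 CPM in Dcn+ cells (DTRneg against DTRpos), and their part was not tested. Dcx+ cells, at 110 and 83, had log2 ratios of 1.01 (0.62 to 1.40) for Mt1, 1.45 (0.86 to 2.05) for Mt2 and 1.03 (0.57 to 1.49) for Mt3, where 0.712% of 1686 genes were past 2-fold and 0.297% higher. They rested on 103 and 125, 40 and 66, and 73 and 90 UMIs, Mt2 was under the mean of 100 CPM used for that share, and the tenth of cells with most Mt2 held 62.5% and 72.7% of it. No alternatives were run on these cells, and their levels of Mt1 and Mt3 lay within the range of the astrocyte genes. Over all cells without regard to class the log2 ratios were 0.42 for Mt1, 0.56 for Mt2 and 0.46 for Mt3. Aqp4+ cells were 9.27% of DTRneg and 11.7% of DTRpos cells, and Mog+ cells 54.1% and 45.3%. Cells with under 2 UMIs of every class marker were 15.6% and 18.3%. Mt1 stood at 2729 and 4553 CPM and Mt2 at 416 and 700 CPM in those cells. The part of these shares and levels in the ratios over all cells was not tested. Of the 4 pathway lists, 1 gene in Rgs5+ cells (Hspa1b, lower) and 2 in Dcn+ cells (Nr3c1 and Fosb, higher) were past 2-fold.

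**Figure D4:**
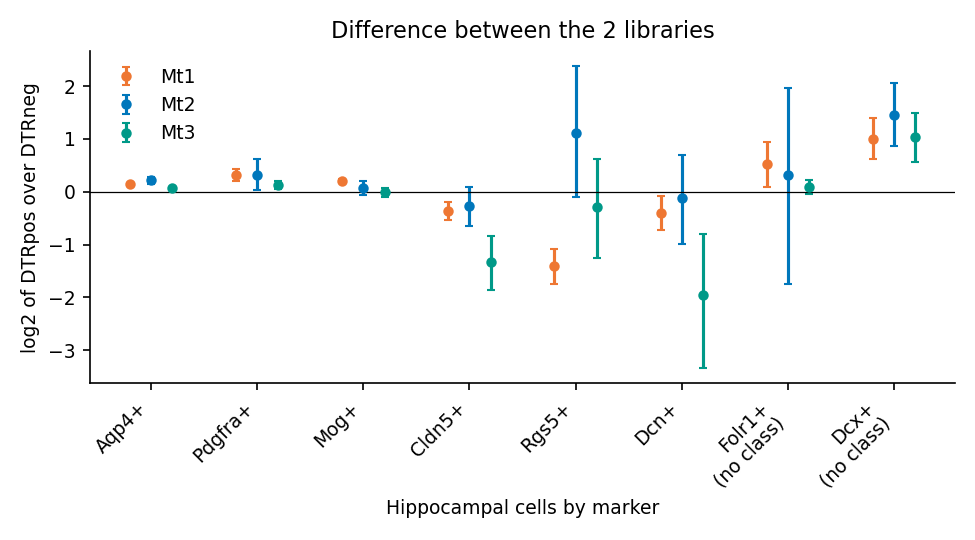
Log2 of the DTRpos over the DTRneg level for Mt1, Mt2 and Mt3 by class, 1 library each, with exact 95% intervals for counting error as bars and a line at 0. Aqp4+, Pdgfra+ and Mog+ cells lie near 0, and the lowest points are Mt1 in Rgs5+ cells (-1.41) and Mt3 in Cldn5+ (-1.34) and Dcn+ (-1.95) cells.

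Meningeal T cells had far less metallothionein RNA than Aqp4+ cells, and the level differed between the replicates. T cells were those with at least 2 UMIs of CD3 and T-cell receptor genes and none of 7 genes of other immune cells, 1679 in replicate 1 and 3959 in replicate 2. Mt1 stood at 177 CPM in replicate 1 (1126 UMIs) and 6.23 CPM in replicate 2 (52 UMIs), a 28.4-fold difference (exact 95% interval 21.5 to 38.2). Mt2 stood at 26.7 and 0.719 CPM (170 and 6 UMIs), and Mt3 at 12.6 and 5.39 CPM (80 and 45 UMIs). A Mt1 UMI was seen in 12.6% and 0.884% of T cells at median depths of 3122 and 1747 UMIs, and in 5.55% and 0.359% of those thinned to 1000 UMIs.

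Most Mt1 UMIs of replicate 1 sat in few droplets that also held RNA of other tissues. The 43 T cells with at least 3 Mt1 UMIs held 941 of the 1126 (83.6%), and the highest held 138. These 43 had a median of 11028 UMIs, against 3091.5 in T cells with no Mt1 UMI. In the 43 the intestinal epithelial genes Car1 and Zg16 stood at 3361 and 1496 CPM, the epithelial genes Krt8 and Epcam at 2198 and 1132 CPM and the fibroblast gene Dcn at 2355 CPM. In T cells with no Mt1 UMI the same 5 genes stood at 58.0, 6.62, 97.8, 58.6 and 69.9 CPM, and Cd3e was 339 CPM in the 43 against 1304 CPM. In replicate 2 only 3 T cells had at least 3 Mt1 UMIs, and they held 19 of its 52 Mt1 UMIs.

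Setting aside droplets with at least 5 UMIs of 12 genes of other tissues, most of them epithelial or fibroblast genes, a rule chosen after these values were seen, left 1602 and 3952 T cells. The 77 droplets left out of replicate 1 held 923 of its 1126 Mt1 UMIs and 140 of its 170 Mt2 UMIs, but 16 of its 80 Mt3 UMIs. Mt1 then stood at 36.3 and 5.28 CPM, a 6.86-fold difference (4.93 to 9.74). Mt2 then stood at 5.36 and 0.600 CPM, and Mt3 at 11.4 and 4.80 CPM, near its level with all T cells. Whether the remaining Mt1 UMIs came from T cells or from free RNA was not tested.

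By Foxp3, the defining factor of regulatory T cells, the metallothioneins showed no difference that passed the test. Cells with at least 1 Foxp3 UMI numbered 189 in replicate 1 and 628 in replicate 2, and in both the regulatory T cell genes Ctla4 and Tnfrsf4 stood higher in them. Ctla4 was 1165 in Foxp3+ and 251 in Foxp3- cells of replicate 1, and 256 and 73.1 in replicate 2, in CPM. Foxp3+ cells were also deeper, with medians of 4481 and 1968.5 UMIs against 3053 and 1717, and the part of depth was not tested. Mt1 was 135 CPM in Foxp3+ and 184 CPM in Foxp3- cells of replicate 1, while replicate 2 had 10.6 and 5.19 CPM, so the 2 replicates went opposite ways. Mt2 was 21.3 against 27.7 CPM and 1.25 against 0.593 CPM. Mt3 was 8.10 against 13.4 CPM and 3.13 against 5.93 CPM, lower in Foxp3+ cells of both. edgeR called 0 of 11341 genes (0%) at an adjusted p under 0.05, with 256 at an unadjusted p under 0.05, and DESeq2 called 22. The log2 fold changes were -0.49 (SE 2.12) for Mt1, -0.59 (SE 2.29) for Mt2 and -0.94 (SE 0.80) for Mt3, each with an edgeR adjusted p of 0.9997. With the replicate as a block, 365 genes (3.22%) were called, and the edgeR adjusted p was 0.632 for Mt1, 0.803 for Mt2 and 0.424 for Mt3. Without the other-tissue droplets Mt1 stood higher in Foxp3+ cells of both, at 46.9 and 34.2 CPM in replicate 1 and at 10.6 and 4.01 CPM in replicate 2, with an edgeR adjusted p of 0.9999.

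Cycling T cells, with at least 3 UMIs of 10 genes of cell division such as Mki67 and Top2a, had higher CPM of each metallothionein in both replicates without passing the test, and for Mt1 the direction turned under 3 alternatives. There were 51 and 102 of them, and Hmgb2, a chromatin gene of dividing cells outside those 10, stood at 2266 and 1874 CPM in them and at 324 and 254 CPM in the rest. Mt1 was 251 in cycling and 171 in other T cells of replicate 1, and 17.01 and 5.41 in replicate 2, in CPM. In replicate 2, 9 of the 10 Mt1 UMIs of cycling cells sat in 1 cell. Mt2 was 68.1 against 23.5 CPM, and 5.10 against 0.387 CPM from 3 UMIs in each state. Mt3 was 35.2 against 10.8 CPM, and 10.2 against 5.03 CPM from 6 and 39 UMIs. edgeR called 191 of 11086 genes (1.72%), and its log2 fold changes were 0.49 (SE 2.11, adjusted p = 0.963) for Mt1, 1.49 (SE 2.22, adjusted p = 0.872) for Mt2 and 1.40 (SE 0.76, adjusted p = 0.509) for Mt3. With the replicate as a block 873 genes (7.87%) were called, and edgeR's adjusted p was 0.0942 for Mt1, 0.0673 for Mt2 and 0.0892 for Mt3. The log2 fold change of Mt1 was -0.40 and -0.47 when the leading hashtag had to be 5 and 20 times the next, and -1.56 after thinning. That thinned fit set the states again on the thinned counts, which left 20 and 56 cycling cells. The thinned shares kept the states set before thinning. Of cells thinned to 1000 UMIs, 5.88% of cycling and 5.54% of other T cells of replicate 1 had a Mt1 UMI. The shares were 3.92% and 0.955% for a Mt2 UMI and 5.88% and 1.02% for a Mt3 UMI. In replicate 2 the thinned shares for Mt1 were 0.980% and 0.341%, and 0 of 102 cycling cells had a Mt2 or Mt3 UMI, which allows up to 2.94%, against 0.0284% and 0.369% of the others. Without the other-tissue droplets Mt1 of replicate 1 stood at 51.7 and 35.2 CPM (log2 ratio 0.55, exact 95% interval -0.23 to 1.25) and Mt2 at 8.61 and 5.14 CPM from 3 and 27 UMIs (0.74, -1.62 to 2.44). In that setting Mt3 stood at 45.9 and 9.14 CPM (cycling, then other T cells) in replicate 1, from 16 and 48 UMIs, and at 8.59 and 4.52 CPM in replicate 2. Cycling cells were deeper, with medians of 8047 against 3101.5 and 4953.5 against 1726 UMIs, and the part of depth was not tested. Of the genes tested in the 4 pathway lists, 0 were called in either T-cell contrast. With the block 1 was called by Foxp3, higher, of 12 dissociation stress genes, where 3.22% of all genes were called. By cycling 7 were called, where 7.87% of all genes were. They were 1 of 23 metal handling and 1 of 9 glucocorticoid response genes (lower), and 2 of 15 oxidative stress genes (higher). The rest were in the 12 dissociation stress genes, 2 higher and 1 lower.

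**Figure D5:**
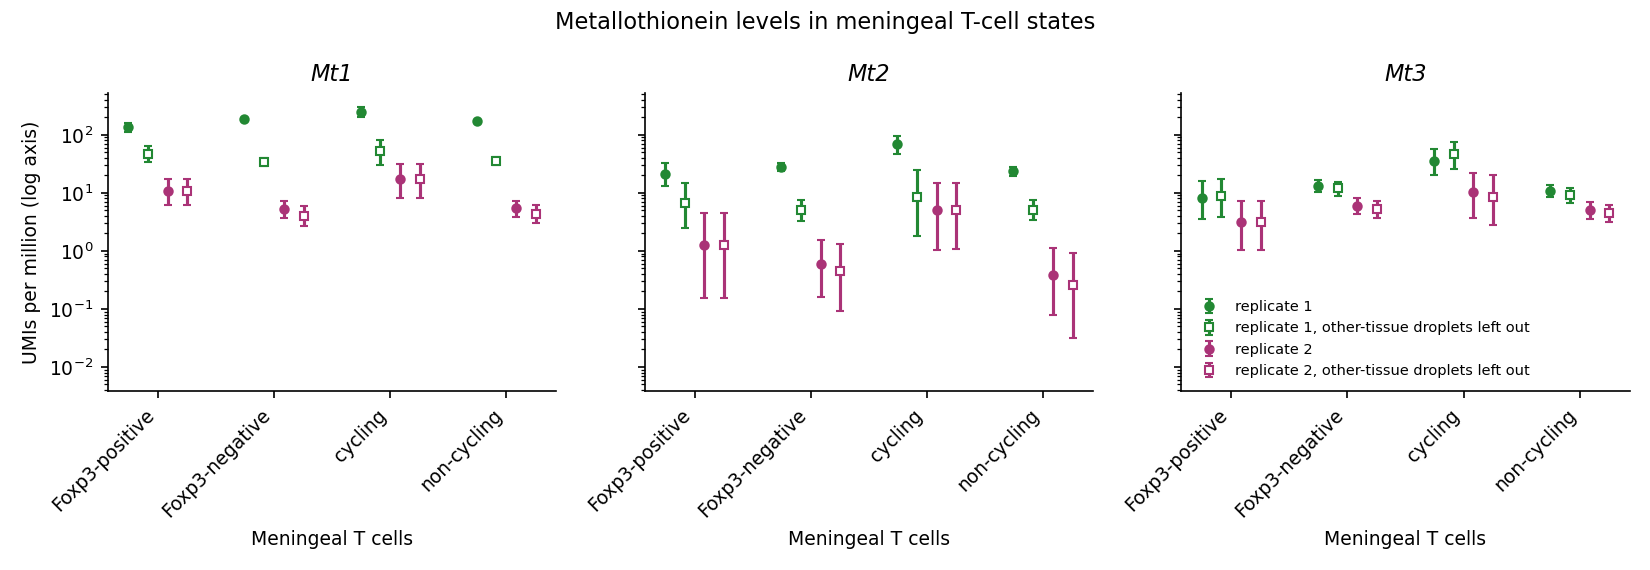
Level of Mt1, Mt2 and Mt3 (CPM, log axis) in Foxp3-positive, Foxp3-negative, cycling and non-cycling meningeal T cells of replicate 1 (green) and replicate 2 (purple), with exact 95% Poisson intervals as bars. Filled circles are all T cells and open squares leave out droplets with RNA of other tissues, which lowers Mt1 and Mt2 in replicate 1 and leaves Mt3 near its level.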

How the data were processed

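The gene tables hold counts of UMIs per gene and cell barcode, deposited by the authors as Cell Ranger matrices, per the file headers (version 4.0.0 for meningeal replicate 1, 6.0.0 for replicate 2 and 6.1.0 for the hippocampus). The submitters' processing notes name the mouse build mm10, Seurat and Cell Ranger 6.1.0. The labels' protocols name a 3′ kit for every library, while the design text names 5′ chemistry for the T cells. Hashtag counts deposited by the authors assigned meningeal barcodes to hashtag 7 (replicate 1) or 10 (replicate 2). The label of replicate 1 pairs hashtag 7 with the sequence that the table of replicate 2 gives to hashtag 10, and the name was followed. A hashtag needed at least 10 counts and 2 times the next. T-cell receptor files were not used.

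Symbols with several identifiers were summed. Cells had at least 500 genes and under 15% (hippocampus) or 10% (meninges) mitochondrial UMIs, and Scrublet (Scanpy 1.11.5) removed 242 and 158 hippocampal doublets. In the meninges no doublet caller was run, and barcodes without 1 leading hashtag were dropped. UMI sums per class or state and library were tested with edgeR 4.0.16 (TMM, filterByExpr, quasi-likelihood with robust prior, library as a term for classes). Benjamini-Hochberg adjustment was over all genes. The class and Foxp3 fits were also run on simulated data. These had the same dispersion for every gene, known folds in genes of higher level only, and no difference between replicates or libraries. Mt1 differed 28.4-fold between the meningeal replicates, so that check does not cover its T-cell tests. The robust prior was chosen after the data were seen, since the older default gave much smaller errors, and the older form is an alternative, as is DESeq2 1.42.0. Gate genes were left out of the tests they define. T-cell states of 1 replicate come from the same library, so the replicate number pairs them. Across genes, deviations from the state means had r = 0.838 (Foxp3) and 0.706 (cycling) between states of the same replicate. Nothing says how many animals a meningeal replicate holds. In the main T-cell fits, which left this pairing out, p-values measure the spread between these 2 libraries. For Mt1 by Foxp3 the SE was 2.12 without the block and 0.20 with it. With the block, p-values measure how far the state difference itself differed between replicates. In the class fit the library term takes up genotype and library together. Its p-values measure how far class differences differed between DTRneg and DTRpos.

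The genes, lists and gates were chosen with earlier results of these data known. The text names the 3 genes everywhere, and of each list, for Aqp4+ cells against the others, at most 2 genes in each direction that passed the test or 2-fold, plus Mtf1, Slc30a1 and, in single sentences, genes that mark a cell type. The settings that leave out droplets with other-tissue or astrocyte UMIs, and the older quasi-likelihood, were added after the data were seen. Hmgb2 and Ctla4 were named as examples after their values were seen. Some items are not reported here.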

Additional observations from a re-analysis of the deposited data

Results flagged for a closer look

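Some differences had opposite directions in groups under the same contrast, and none of these oppositions was tested. Mt1 in Foxp3-positive against Foxp3-negative T cells had a log2 ratio of -0.45 in meningeal replicate 1 and 1.04 in replicate 2. Mt2 had -0.38 and 1.08 in the same contrast, the latter from 2 and 4 UMIs. Between DTRpos and DTRneg, Mt1 had log2 ratios above 0, with counting intervals that exclude 0, in Aqp4+, Pdgfra+ and Mog+ cells, and below 0 in Cldn5+ cells (-0.36), Rgs5+ cells (-1.41) and Dcn+ cells (-0.40). Mt3 was above 0 in Aqp4+ and Pdgfra+ cells and below 0 in Cldn5+ cells (-1.34) and Dcn+ cells (-1.95). These oppositions did not hold under every setting: Mt3 was 0.39 in Cldn5+ cells without the 5 highest cells and 0.68 and 0.37 in Dcn+ cells with 4 marker genes per class and with doublets kept, and Mt1 in Dcn+ cells was 0.20 after thinning.

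Outside the 6 marker classes a signal of Mt3 stood in Folr1+ cells, at 3554 CPM in DTRneg and 3795 CPM in DTRpos, where 3 counts would be 4.05 and 18.8 CPM.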

How the results depend on the processing

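All 3 genes were highest in Aqp4+ cells in both libraries under all 9 alternatives, and between 10 and 13 of the 18 DTRpos to DTRneg ratios were above 0, against 9. The count of genes called for Aqp4+ cells stayed within 1.5 times of 6725 in all 8 alternatives. Of 10247 gene and class pairs, 152 were past 2-fold between DTRpos and DTRneg. That count was 457 with no UMI of another class marker allowed, 448 after thinning, 376 without cells holding 3 astrocyte UMIs and 2290 with a minimum of 20 CPM. With the replicate block, Foxp3 gave 365 called genes and cycling 873, and no metallothionein was called. DESeq2 gave 22 and 432, and edgeR without the block 0 and 191. For cycling the count was 113 with the older quasi-likelihood, 81 after thinning, 310 without other-tissue droplets and 34 at 2 cycling UMIs.

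Of the 18 ratios, 6 took the other sign under at least 1 alternative, 3 of them with a counting interval that excluded 0. Of these, Mt3 in Dcn+ cells had log2 ratios of 0.68 with 4 marker genes per class and 0.37 with doublets kept, Mt1 in Dcn+ cells 0.20 after thinning, and Mt3 in Cldn5+ cells 0.39 without its 5 highest cells. The other 3 were Mt2 in Dcn+ cells (0.22 to 0.50 in 3 alternatives), Mt3 in Rgs5+ cells (0.058 to 1.40 in 5) and Mt3 in Mog+ cells (0.0013 to 0.28 in all 9). In Dcn+ cells against the other classes Mt1 was -0.085 with 4 marker genes and -0.10 after thinning, and Mt2 -0.12 with no UMI of another marker. In T cells Mt2 by Foxp3 was 0.0496 at a hashtag margin of 20 times and 0.33 without other-tissue droplets, and Mt1 by Foxp3 0.17 with the immune exclusion dropped and 0.45 without other-tissue droplets. Mt1 by cycling was -0.40 and -0.47 at margins of 5 and 20 times and -1.56 after thinning. By replicate alone, Mt1 by Foxp3 ranged from -0.45 to 1.04 and Mt2 from -0.38 to 1.08. The cause of these changes was not tested. Leaving out a library leaves no residual degrees of freedom, so only values are given. Small classes limit the depth: 3 counts are 16.8 and 28.5 CPM in Dcn+ cells.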
